A study of Mus musculus with 8 samples.

Results

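The genes described here carry out the uptake, activation and oxidation of fatty acids in mitochondria and peroxisomes, and were followed in the colon of adult mice with a STAT5b deficiency; STAT5b carries signals of growth hormone and cytokines to the nucleus as a transcription factor. They are a list of 39 genes chosen by function, with earlier results of these data known. The list holds enzymes of fatty acid activation and of both oxidation pathways, the carnitine shuttle, electron transfer and acyl-CoA thioesterases. The peroxisome division factor Pex11a and the fatty acid receptor Cd36 complete it. All 39 were measured, by 42 probe sets, among 14351 genes in all. By the main site of their products, 17 were counted as mitochondrial and 14 as peroxisomal, Crat as both, and 7 as acting elsewhere.

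Total RNA of the colon was measured on 8 Affymetrix arrays, of which 3 are titled STAT5b-/-, 3 WT and 2 REF. The mice are described as adult, with genotype STAT5b-/- or wild type; WT and REF mice are all female, and among the STAT5b-/- mice replicate 1 is male and replicates 2 and 3 are female. No treatment is given in the labels, nor what the STAT5b mutation removes. REF has the wild type genotype, its name is not explained, and its 2 columns hold the same values to within 2.47e-07, below any sampling noise, and count here as 1 sample. The deposited values are ratios, with the mean over the 3 WT arrays as 1, so levels cannot be set against each other between genes.

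Fatty acids enter oxidation as coenzyme A esters. In mitochondria, carnitine palmitoyltransferases bring long-chain esters across the membranes, and repeated rounds of dehydrogenation, hydration, a further dehydrogenation and thiolytic cleavage shorten the chain while electrons pass to the respiratory chain. Peroxisomes run a parallel set of steps on very long and branched chains, in which the first step makes hydrogen peroxide, and hand shortened chains to mitochondria as carnitine esters. In the colon, absorptive epithelial cells oxidise short-chain fatty acids made by bacteria, butyrate above all, as a main fuel, and PPAR nuclear receptors are known to induce many genes of both pathways.

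Over these 39 genes, the STAT5b-/- colons had higher expression in mitochondrial and peroxisomal steps alike. Of the 39, 26 rose and 0 fell (limma, adjusted p under 0.05), while 13.3% of all genes tested were called higher and 8.42% lower. As earlier results of these data were known when the list was drawn up, its counts are a description and no independent support. At least 2-fold rises were called in 14 of the 39, against 5.02% of all genes. The median log2 fold change of the 39 was 0.78, and that of all genes 0.0068. In 28 of the 39 every STAT5b-/- array lay above every WT array, which 25.0% of all genes did, and in the same 28 every STAT5b-/- array lay above REF too (22.6% of all genes). The remaining 11 had groups that overlapped, and none lay wholly below WT (16.5% of all genes). After quantile normalization of the deposited ratios, 5 of the 39 were called, all higher, beside 2.77% of all genes, and the median of the 39 was 0.53.

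The targeted gene serves as a check of the labels. Stat5b had ratios of 1.16, 1.17 and 1.26 in the arrays labelled STAT5b-/-, against 1.08, 0.93 and 0.993 in WT and 1.18 in REF, so it was not measured lower, and each direction given here rests on the labels. Where a bulk tissue is measured, fewer cells of a type and less RNA per cell cannot be told apart. Markers of absorptive colonocytes, a list of 14 of which 12 were measured, moved with the fatty acid oxidation genes: 10 rose and 1 fell, and their median ratio was 1.78 to 1.89 in the STAT5b-/- arrays, against 0.986 to 1.04 in WT. Goblet cell markers, a list of 10 of which 8 were measured, moved the other way, with 6 of 8 lower and a median ratio of 0.353 to 0.459 in STAT5b-/- arrays, against 0.96 to 1.06 in WT. Of all genes tested, 13.3% were called higher and 8.42% lower. The part of such shifts in cell type markers in the results below was not tested. Apart from the male, replicate 1 of STAT5b-/-, the labels do not state whether replicates came from different mice, so each p-value measures variation among these samples, part of which may be technical.

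**Figure D1:**
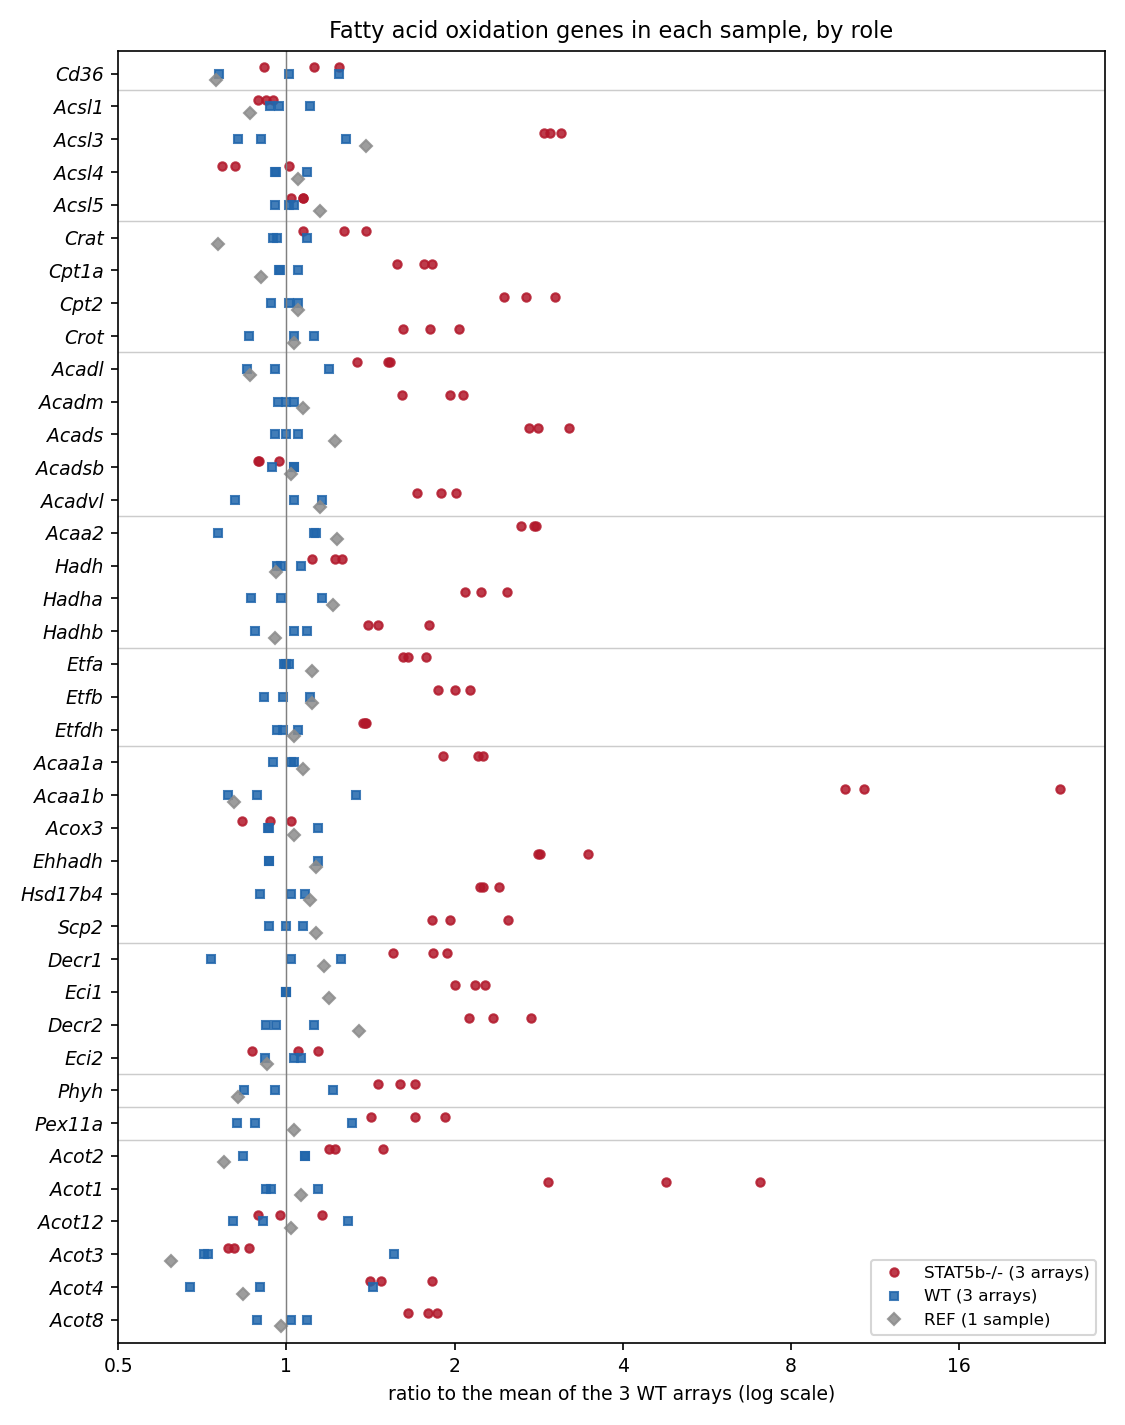
Ratio of each of the 39 genes to the mean of the 3 WT arrays (horizontal log axis), by role from top to bottom, with 3 STAT5b-/- arrays (circles), 3 WT arrays (squares) and REF (diamond). In 28 genes all STAT5b-/- points lie to the right of all WT points, and Acaa1b and Acot1 lie farthest to the right.

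Uptake and activation come first in the pathway, and 1 of these 5 genes rose. In so few genes, that count is near the 13.3% of all genes called higher. Cd36, which takes up long-chain fatty acids, had ratios of 0.91, 1.12 and 1.24 in STAT5b-/- arrays, against 0.758, 1.01 and 1.24 in WT and 0.748 in REF. The groups overlapped, and the change of 0.14 ± 0.21 (SE) on the log2 scale was not called (limma adjusted p = 0.703). Long-chain acyl-CoA synthetases, which attach coenzyme A to fatty acids, had 1 of 4 called and a median log2 fold change of -0.021. Acsl3, known from lipid droplets and the endoplasmic reticulum, had ratios of 2.96, 2.89 and 3.1 in STAT5b-/- arrays, against 1.28, 0.818 and 0.9 in WT and 1.39 in REF. All STAT5b-/- values lay above the others, and Acsl3 rose 3.04-fold (log2 fold change 1.60 ± 0.19, limma adjusted p = 0.00197). Its 2 probe sets gave the same log2 fold change of 1.60. Their ratios were nearly the same in every array, so they do not count as separate measurements.

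Acsl1, the synthetase most tied to oxidation in liver and muscle, had ratios of 0.891, 0.948 and 0.921 in STAT5b-/- arrays, against 1.1, 0.934 and 0.97 in WT and 0.859 in REF. The groups overlapped, and the log2 change was -0.12 ± 0.12 (limma adjusted p = 0.554). Acsl5, a synthetase abundant in intestinal epithelium, changed in neither direction past the test, at 0.075 ± 0.11 on the log2 scale (limma adjusted p = 0.691). For Acsl4, which prefers arachidonic acid, the value was -0.22 ± 0.15 (limma adjusted p = 0.36), with -0.25, -0.21 and -0.20 from its 3 probe sets. The difference between Acsl3 and Acsl1 was larger by 1.72 on the log2 scale in STAT5b-/- than in WT, with no overlap of the arrays (two-sided exact permutation test, p = 0.1, the smallest that 3 against 3 can give).

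In the carnitine shuttle 3 of 4 genes rose, beside 13.3% of all genes called higher. Cpt2, which releases acyl-CoA inside the mitochondrion, had ratios of 2.45, 3.03 and 2.68 in STAT5b-/- arrays, against 0.939, 1.01 and 1.05 in WT and 1.05 in REF. Cpt2 rose by 1.44 ± 0.13 on the log2 scale (limma adjusted p = 0.000873). Cpt1a, the regulated entry step on the outer membrane, had ratios of 1.82, 1.58 and 1.76 in STAT5b-/- arrays, against 0.971, 0.975 and 1.05 in WT and 0.899 in REF. It too was apart from WT in every array and rose by 0.78 ± 0.12 (limma adjusted p = 0.0056). The rise of Cpt2 exceeded that of Cpt1a by 0.66 on the log2 scale (two-sided exact permutation test, p = 0.1, the smallest possible). Crot, which makes medium-chain carnitine esters for export from peroxisomes, rose by 0.87 ± 0.16, whereas the value for Crat, which acts on short chains, was 0.31 ± 0.15 (limma adjusted p = 0.00984 for Crot and 0.188 for Crat).

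Promoter windows were read from RefSeq for assembly GRCm38.p6, from 250 bases before to 50 after the start of each gene, 300 bases in all, and 35 of the 39 genes matched. They were searched on both strands for TTCNNNGAA, the core of the sites that STAT proteins bind. It was present in 3 of the 35, which is 8.57%, against 9.55% of 27025 genes. The Cpt2 window is shown because it is one of the 3; it lies on the minus strand at chr4:107923540-107923839, and capitals mark the match, which starts at -200 from the start site.
Cpt2: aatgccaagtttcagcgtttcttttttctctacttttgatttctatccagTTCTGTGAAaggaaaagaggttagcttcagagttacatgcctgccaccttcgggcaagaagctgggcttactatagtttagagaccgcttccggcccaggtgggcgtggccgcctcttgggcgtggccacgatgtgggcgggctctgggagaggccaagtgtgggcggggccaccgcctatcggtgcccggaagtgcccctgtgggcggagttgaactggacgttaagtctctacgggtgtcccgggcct

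The other 2 windows are those of Hadha and Hadhb, neighbours on chromosome 5 that are read in opposite directions. Their windows share 228 bases, and both hold the same match at chr5:30155128-30155136, so it counts for 1 place in the genome. The Hadha window, on the minus strand at chr5:30154931-30155230, is shown as the stretch that faces both genes, with the match in capitals.
Hadha: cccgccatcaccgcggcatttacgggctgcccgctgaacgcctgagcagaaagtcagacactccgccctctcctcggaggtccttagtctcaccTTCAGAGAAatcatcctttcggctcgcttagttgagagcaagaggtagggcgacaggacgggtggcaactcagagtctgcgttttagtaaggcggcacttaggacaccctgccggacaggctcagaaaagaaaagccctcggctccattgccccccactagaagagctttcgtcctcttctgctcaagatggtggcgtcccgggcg
A match in these letters is a description and no evidence of binding.

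Hadha and Hadhb encode the subunits of the trifunctional protein, which carries out the later steps on long chains. Hadha had ratios of 2.09, 2.48 and 2.23 in STAT5b-/- arrays, against 1.16, 0.865 and 0.977 in WT and 1.21 in REF, and rose 2.28-fold (log2 fold change 1.19 ± 0.15, limma adjusted p = 0.00287). Hadhb rose by less, 0.63 ± 0.16 on the log2 scale (limma adjusted p = 0.0291). The gap between the rises was 0.56, and the arrays overlapped in it (two-sided exact permutation test, p = 0.2). Acaa2, the mitochondrial thiolase of medium chains, had ratios of 2.63, 2.78 and 2.8 in STAT5b-/- arrays, against 1.12, 0.753 and 1.13 in WT and 1.23 in REF, a log2 change of 1.48 ± 0.18 (limma adjusted p = 0.00255). Hadh, a dehydrogenase of short and medium chains, had 0.26 ± 0.12, and did not pass although all STAT5b-/- arrays lay above WT (limma adjusted p = 0.182).

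The acyl-CoA dehydrogenases, which start each round and differ in chain length, rose in 4 of 5, beside 13.3% of all genes. Acads, for short chains such as butyrate, had the smallest p of all 39 genes. Its ratios were 3.21, 2.72 and 2.82 in STAT5b-/- arrays, against 0.955, 1.05 and 0.998 in WT and 1.22 in REF, a rise of 2.91-fold (log2 fold change 1.54 ± 0.12, limma adjusted p = 0.000587). By chain length the log2 fold changes were 0.91 ± 0.17 for Acadvl (very long), 0.56 ± 0.16 for Acadl (long), 0.90 ± 0.14 for Acadm (medium) and 1.54 for Acads. Acadsb, for short branched chains from amino acids, had -0.12 ± 0.12 with overlapping groups (limma adjusted p = 0.516).

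Electron transfer genes, which carry electrons from these dehydrogenases to the respiratory chain, rose in 3 of 3, beside 13.3% of all genes. Etfb, a subunit of the electron transfer flavoprotein, had ratios of 1.87, 2.13 and 2 in STAT5b-/- arrays, against 0.985, 0.911 and 1.1 in WT and 1.11 in REF (limma adjusted p = 0.00303). Etfa, its partner subunit, had 1.62, 1.65 and 1.78 in STAT5b-/- arrays, against 0.99, 1.01 and 1 in WT and 1.11 in REF (limma adjusted p = 0.005). Their log2 fold changes were 1.00 ± 0.13 and 0.75 ± 0.11, and that of Etfdh, which accepts the electrons, was 0.46 ± 0.11, with no overlap of groups in any of the 3.

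Auxiliary enzymes prepare unsaturated chains for oxidation, and 3 of 4 rose, beside 13.3% of all genes. Eci1, the mitochondrial enoyl-CoA isomerase, had ratios of 2, 2.18 and 2.27 in STAT5b-/- arrays, against 1, 0.997 and 1 in WT and 1.19 in REF, a log2 change of 1.10 ± 0.11 (limma adjusted p = 0.0013). Decr2, the peroxisomal dienoyl-CoA reductase, had 2.74, 2.12 and 2.34 in STAT5b-/- arrays, against 1.12, 0.921 and 0.957 in WT and 1.35 in REF, with 1.26 ± 0.15 (limma adjusted p = 0.0023). REF lay above all WT arrays in both, at well under the STAT5b-/- values. The log2 fold change was 0.85 ± 0.22 for Decr1, the mitochondrial reductase, and 0.02 ± 0.15 for Eci2, an isomerase counted as peroxisomal, with an adjusted p by limma of 0.0322 for the first and 0.943 for the second.

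Peroxisomal oxidation had the largest rise among the 39. Acaa1b, a peroxisomal thiolase, had ratios of 24.3, 10 and 10.8 in STAT5b-/- arrays, against 0.785, 1.33 and 0.887 in WT and 0.805 in REF. Every STAT5b-/- value was far above every other sample, and the highest came from the male, replicate 1. The fold was 14.2 (log2 fold change 3.83 ± 0.38, limma adjusted p = 0.00107), which ranked 19 among the rises of all 14351 genes. Without replicate 1 the log2 fold change was 3.42 ± 0.25 (limma adjusted p = 0.00343); with 1 male among 3, sex and the spread between samples cannot be told apart.

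Acaa1a, its close relative on the same chromosome, with 4 protein-coding genes between, had ratios of 2.25, 1.91 and 2.2 in STAT5b-/- arrays, against 1.02, 0.945 and 1.03 in WT and 1.07 in REF. It rose 2.12-fold (log2 fold change 1.08 ± 0.13, limma adjusted p = 0.00197). The difference Acaa1b minus Acaa1a was 3.44, 2.39 and 2.29 on the log2 scale in STAT5b-/- arrays, against -0.38, 0.49 and -0.22 in WT and -0.41 in REF (two-sided exact permutation test, p = 0.1, the smallest possible). Probe sequences were not used here, so whether either probe set also reads the other gene was not tested.

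The promoter windows of the pair are shown because the genes share a function and differ in the size of the rise. Both are from RefSeq, GRCm38.p6, Acaa1b on the minus strand at chr9:119157044-119157343 and Acaa1a on the plus strand at chr9:119341044-119341343. Capitals mark CCAAT on either strand, a common promoter element, which 19 of the 35 windows held (54.3%, against 41.1% of all genes). Among the 23 genes that rose and had a window, 11 held it, and a link to the rise was not tested.
Acaa1b: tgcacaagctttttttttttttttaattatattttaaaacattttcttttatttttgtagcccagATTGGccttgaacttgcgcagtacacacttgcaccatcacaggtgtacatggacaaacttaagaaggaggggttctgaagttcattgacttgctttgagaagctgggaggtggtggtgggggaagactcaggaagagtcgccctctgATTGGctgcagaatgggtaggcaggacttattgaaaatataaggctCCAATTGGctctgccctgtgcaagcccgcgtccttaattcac
Acaa1a: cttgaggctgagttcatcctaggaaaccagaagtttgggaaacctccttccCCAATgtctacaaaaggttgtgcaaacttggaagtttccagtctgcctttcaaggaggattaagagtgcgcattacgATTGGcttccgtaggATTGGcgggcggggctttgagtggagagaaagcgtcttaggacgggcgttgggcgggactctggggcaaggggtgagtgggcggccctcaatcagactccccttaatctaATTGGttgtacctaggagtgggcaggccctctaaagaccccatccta
Both windows hold it more than once. A direct repeat of the half-site AGGTCA with 1 base between, the kind of site PPAR receptors bind, was searched as AGGTCANAGGTCA and, relaxed, as AGGNCANAGGNCA, which takes in the first. It was found in 0 of the 35 windows in either form, and in 0.0481% and 0.451% of all genes, so these letters are not in these windows and nothing follows for sites elsewhere.

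The 2 multifunctional enzymes of the middle peroxisomal steps both rose. Ehhadh, of the L-specific route, had ratios of 2.84, 2.82 and 3.47 in STAT5b-/- arrays, against 1.14, 0.93 and 0.929 in WT and 1.13 in REF (log2 fold change 1.61 ± 0.15, limma adjusted p = 0.000918). Hsd17b4, of the D-specific route, had 2.4, 2.25 and 2.22 in STAT5b-/- arrays, against 1.08, 0.898 and 1.02 in WT and 1.1 in REF (1.20 ± 0.13, limma adjusted p = 0.00135). In both genes all STAT5b-/- arrays lay above WT and REF. Scp2, which yields a thiolase for branched chains and a sterol carrier, had 2.49, 1.82 and 1.96 in STAT5b-/- arrays, against 1.07, 0.929 and 1 in WT and 1.13 in REF (1.05 ± 0.16, limma adjusted p = 0.0048).

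Acox3, an oxidase of branched chains, was not called: its log2 fold change was -0.11 ± 0.15 with overlapping groups (limma adjusted p = 0.667). Phyh, which starts the alpha oxidation of phytanic acid, rose by 0.68 ± 0.17, and Pex11a, which promotes peroxisome division, by 0.77 ± 0.22 (limma adjusted p = 0.0291 and 0.0467).

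**Figure D2:**
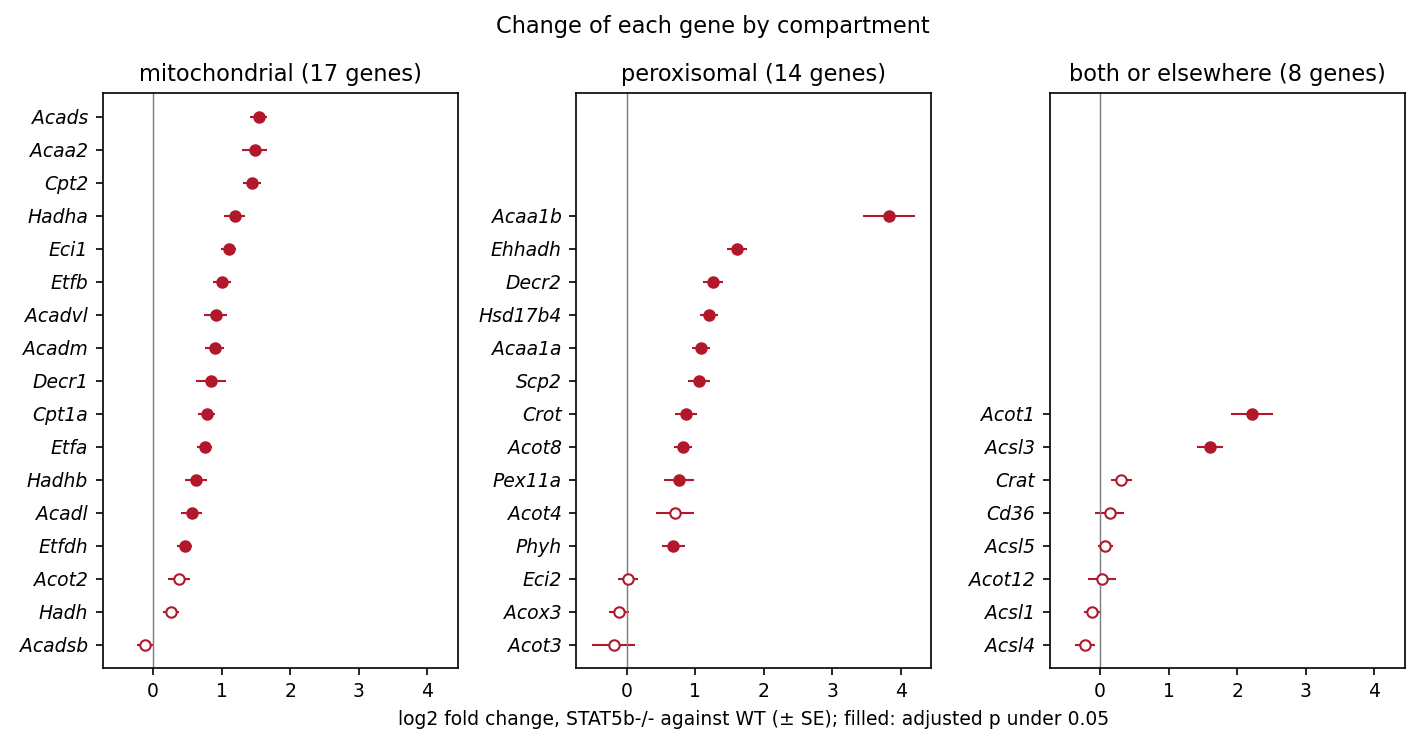
Log2 fold change of each gene, STAT5b-/- against WT, with its standard error as a horizontal bar, in 3 panels by compartment; filled points have an adjusted p under 0.05. Mitochondrial genes reach up to 1.54, while the peroxisomal panel spans from -0.19 for Acot3 to 3.83 for Acaa1b.

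Among all genes, 13.3% were called higher and 8.42% lower. Set side by side, 14 of the 17 mitochondrial and 10 of the 14 peroxisomal genes rose, and 0 of either fell. Both sets had a median log2 fold change of 0.85. The median ratio of the mitochondrial genes was 1.8, 1.65 and 1.89 in STAT5b-/- replicates 1 to 3, against 0.971 to 1.03 in WT and 1.07 in REF. That of the peroxisomal genes was 1.95, 1.82 and 1.8 in STAT5b-/- replicates 1 to 3, against 0.943 to 0.988 in WT and 1.03 in REF. Leaving the thioesterases aside, the medians were 0.88 for 16 mitochondrial and 1.05 for 11 peroxisomal genes. The change ran from -0.12 to 1.54 among the mitochondrial genes and from -0.19 to 3.83 among the peroxisomal ones; the difference between the sets was not tested. Of the 8 genes that act in both or elsewhere, Acot1 and Acsl3 rose.

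Acyl-CoA thioesterases, which split the esters back into free acid and coenzyme A, had 2 of 6 called higher, beside 13.3% of all genes. The log2 fold changes of the 6 ran from -0.19 to 2.22. Acot1, a cytosolic enzyme that PPAR alpha induces in rodent liver, had ratios of 7.04, 2.94 and 4.78 in STAT5b-/- arrays, against 0.94, 0.921 and 1.14 in WT and 1.06 in REF. It rose 4.64-fold (log2 fold change 2.22 ± 0.31, limma adjusted p = 0.00382). The male, replicate 1, had the highest ratio, and without it the log2 fold change was 1.91 ± 0.25 (limma adjusted p = 0.012). Among the STAT5b-/- arrays, the male was highest in 17 and lowest in 14 of the 39 genes. Among the 26 genes that rose, the male was highest in 11 and lowest in 9. Acot8, a peroxisomal thioesterase, had 1.86, 1.65 and 1.79 in STAT5b-/- arrays, against 0.886, 1.02 and 1.09 in WT and 0.979 in REF (0.82 ± 0.13, limma adjusted p = 0.00655).

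Acot2, Acot1, Acot4 and Acot3 follow each other on chromosome 12 with 0 other protein-coding genes between, and of the 4 Acot1 was called. Acot2, the mitochondrial form, had ratios of 1.49, 1.19 and 1.22 in STAT5b-/- arrays, against 0.837, 1.08 and 1.08 in WT and 0.773 in REF. The arrays did not overlap, but the change of 0.38 ± 0.16 on the log2 scale missed the threshold (limma adjusted p = 0.146). Acot1 minus Acot2 changed by 1.83 on the log2 scale (two-sided exact permutation test, p = 0.1, the smallest possible). These are close relatives, and whether a probe set also reads a neighbour was not tested.

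Acot4, a peroxisomal form, had ratios of 1.48, 1.82 and 1.41 in STAT5b-/- arrays, against 0.671, 1.43 and 0.896 in WT and 0.837 in REF, a log2 change of 0.71 ± 0.28 (limma adjusted p = 0.121). Acot3, another peroxisomal form, had 0.806, 0.785 and 0.857 in STAT5b-/- arrays, against 0.711, 1.56 and 0.725 in WT and 0.621 in REF (-0.19 ± 0.31, limma adjusted p = 0.714). WT replicate 2 was the highest WT array in both genes and made the groups overlap. Without it, Acot4 had 1.01 ± 0.18 and was called (limma adjusted p = 0.01), and Acot3 had 0.18 ± 0.12 (limma adjusted p = 0.304). Acot12, a cytosolic enzyme for acetyl-CoA, had 1.16, 0.888 and 0.974 in STAT5b-/- arrays, against 0.909, 1.29 and 0.803 in WT and 1.02 in REF, and its groups overlapped (0.03 ± 0.21, limma adjusted p = 0.939).

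**Figure D3:**
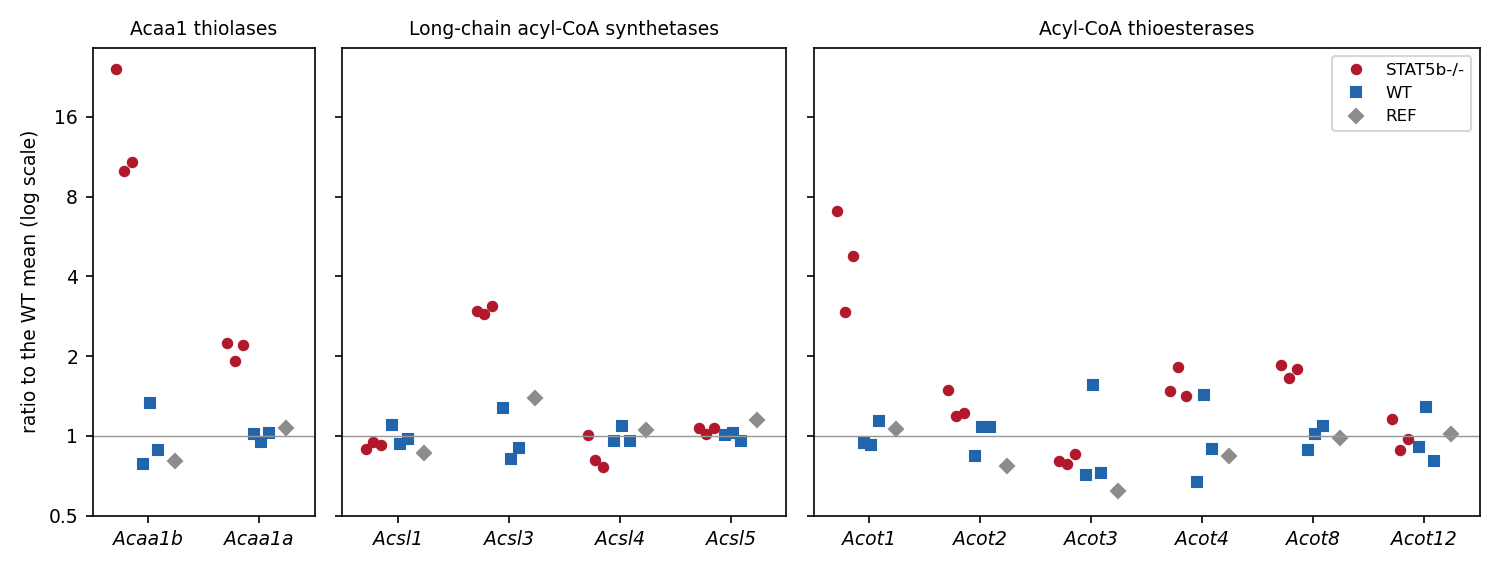
Ratio to the WT mean (vertical log axis) of the Acaa1 thiolases, the long-chain acyl-CoA synthetases and the acyl-CoA thioesterases, with 3 STAT5b-/- arrays (circles), 3 WT arrays (squares) and REF (diamond) for each gene. Acaa1b lies at 10 to 24.3, Acsl3 at 2.89 to 3.1 and Acot1 at 2.94 to 7.04 in STAT5b-/- arrays; Acaa1a also lies wholly above WT, while Acsl1, Acsl4, Acsl5, Acot3, Acot4 and Acot12 overlap with WT.

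REF was compared with WT as 1 sample against 3, to see how far another wild type sample lay from the WT arrays. Both comparisons share those arrays. With REF as 1 sample the test can detect little, so a lack of calls does not show that REF equals WT. None of the 39 genes was called in REF (limma, 0 of 39; 0% of all genes), and 0 of 39 had an unadjusted p under 0.05, which 1.45% of all genes had. The median log2 difference between REF and WT was 0.072 for the 39 genes and -0.051 for all genes, and 25 of the 39 were above 0. Decr2 had a REF difference of 0.44 ± 0.23 and Acsl3 one of 0.50 ± 0.33, while Crat had -0.41 ± 0.21 and Acot3 -0.58 ± 0.54.

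Other genes of the pathway were counted in the same fit, from lists drawn up by function but with earlier results of these data known, so their counts are a description and no independent support; 13.3% of all genes were called higher and 8.42% lower. Of 23 further genes listed with mitochondrial oxidation, not all of which act in mitochondria, 12 rose and 0 fell, with a median log2 fold change of 0.51. Slc25a20, which carries acylcarnitines across the inner membrane between the Cpt1a and Cpt2 steps, rose by 1.45 ± 0.16. Pcca, of 1 subunit of propionyl-CoA carboxylase, rose by 1.12 ± 0.17, and Acot7, a further thioesterase, by 1.00 ± 0.13 (limma adjusted p = 0.00153, 0.00481 and 0.0033). Pccb, of the other subunit, had -0.25 ± 0.12 and was not called (limma adjusted p = 0.169), with every STAT5b-/- array below every WT array. Of 22 further peroxisomal genes, 13 rose and 0 fell, with a median of 0.63. Mlycd, which rose, is in both lists, so the counts are not separate. Pxmp4, a peroxisomal membrane protein, rose by 1.61 ± 0.16 and Nudt19, a peroxisomal coenzyme A hydrolase, by 0.94 ± 0.12 (limma adjusted p = 0.0012 and 0.00247).

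Beside 13.3% of all genes called higher and 8.42% lower, peroxins, which build peroxisomes, rose in 6 of 16 and fell in 1, with a median of 0.29. Pex19 rose by 1.11 ± 0.15 and Pex13 by 0.97 ± 0.13, while Pex5l, a relative of the import receptor Pex5 known from brain, fell by 1.45 ± 0.22 (limma adjusted p = 0.00321, 0.00302 and 0.0048). Respiratory chain and citrate cycle genes rose in 13 of 29 and fell in 0, with a median of 0.44. They included Cycs, cytochrome c (1.38 ± 0.19), Uqcrfs1 of complex III (0.82 ± 0.12) and Sdhb of complex II (0.80 ± 0.12). In REF, Cycs differed from WT by 0.65 ± 0.20 and Pex5l by -0.75 ± 0.20, with unadjusted p = 0.0287 and 0.0156 and neither called (limma adjusted p = 0.998 for each). Ketone body genes rose in 4 of 8 and fell in 2. Bdh1, which interconverts the main ketone bodies, rose by 1.56 ± 0.14, and Slc16a6, a transporter of ketone bodies in zebrafish liver, fell by 2.05 ± 0.18 (limma adjusted p = 0.000874 and 0.000771).

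Fatty acid synthesis genes rose in 2 of 13 and fell in 2, with a median of 0.12, beside 13.3% of all genes higher and 8.42% lower. Acly, which makes cytosolic acetyl-CoA, fell by 0.69 ± 0.11, the elongase Elovl1 rose by 0.78 ± 0.17 and the carbohydrate-responsive factor Mlxipl by 0.76 ± 0.17. Further transport and activation genes rose in 3 of 18 and fell in 2, with a median of -0.072, which is also near those shares of all genes. Slc27a4, the main fatty acid transport protein of the gut, rose by 1.97 ± 0.14, while Acsm3, a medium-chain synthetase, fell by 2.44 ± 0.24 and Acss2, a cytosolic acetate synthetase, by 1.11 ± 0.15. In REF, Acss2 differed from WT by -0.98. Regulators rose in 7 of 16 and fell in 1, with a median of 0.55. The gene that fell was Ppargc1a, a coactivator known to promote mitochondrial oxidation (-0.68 ± 0.14, limma adjusted p = 0.0143). Pparg rose by 2.05 ± 0.28, Rxra, the partner of PPAR receptors, by 1.15 ± 0.14, and Prkaa1, a catalytic subunit of AMP-activated kinase, by 1.53 ± 0.22 (limma adjusted p = 0.00372, 0.00239 and 0.00432).

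**Figure D4:**
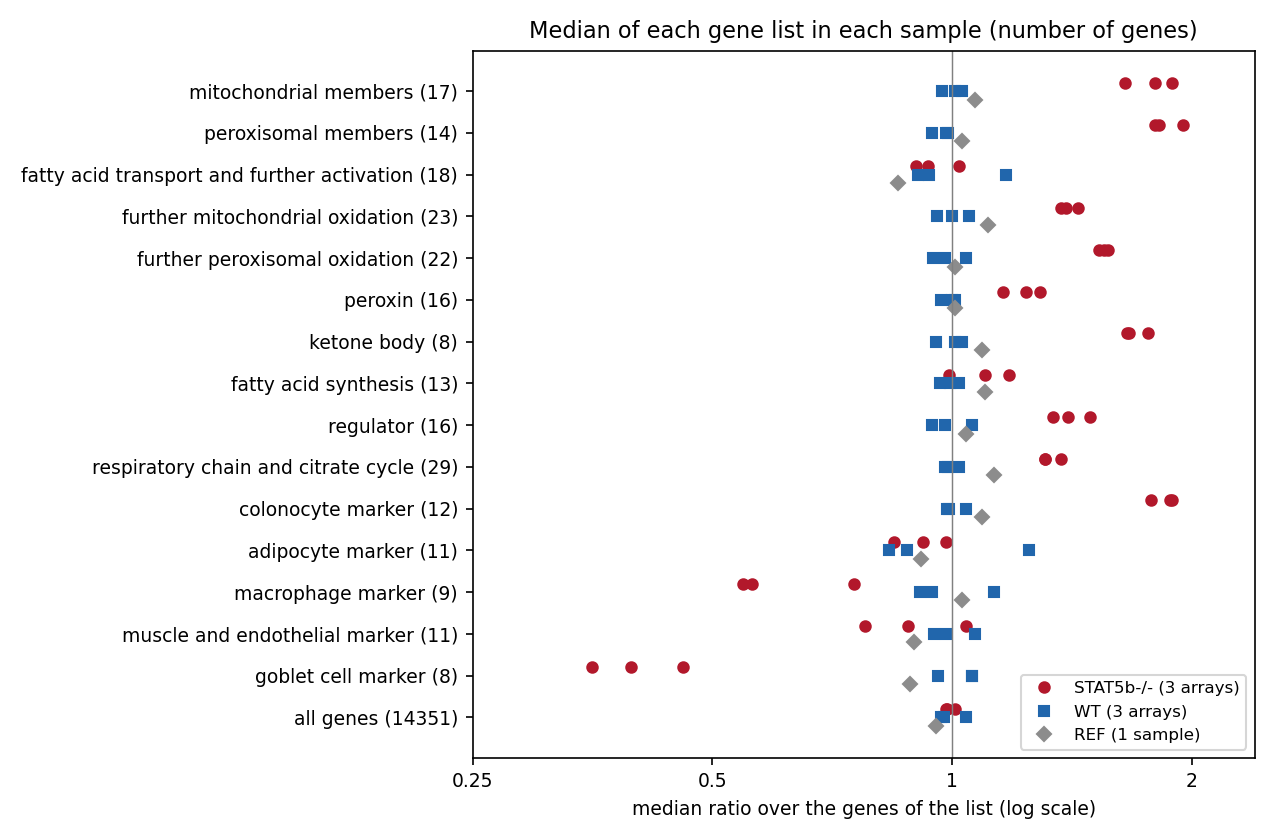
Median ratio over the genes of each list (horizontal log axis) in 3 STAT5b-/- arrays (circles), 3 WT arrays (squares) and REF (diamond), with the number of genes in brackets. Mitochondrial and peroxisomal members lie at 1.65 to 1.95 in STAT5b-/- arrays, near the colonocyte markers at 1.78 to 1.89, and goblet cell markers lie below 1.

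Among the marker lists, the colonocyte genes with the smallest p were Tmigd1 (2.79 ± 0.27), the water channel Aqp8 (1.45 ± 0.15) and Cdhr5 of the brush border (1.11 ± 0.15), all higher. The colonocyte marker that fell was Ceacam20 (-0.64 ± 0.13, limma adjusted p = 0.0153). Car4, also of that list, had -0.63 ± 0.25 and was not called (limma adjusted p = 0.123), with every STAT5b-/- array below every WT array. Goblet cell markers Spdef, Ern2 and Clca1 fell by 3.07 ± 0.18, 2.30 ± 0.16 and 1.36 ± 0.16. Adipocyte markers had 4 of 11 higher and 0 lower, beside 13.3% of all genes higher and 8.42% lower. Their median ratio was 0.846 to 0.982 in STAT5b-/- arrays, against 0.834 to 1.25 in WT. The 4 were Cidec (3.37 ± 0.32), Lipe (1.63 ± 0.15), Pnpla2 (1.20 ± 0.12) and Plin4 (1.22), which handle lipid droplets, whereas adiponectin (Adipoq) had -1.32 and leptin (Lep) -0.64, neither called (limma adjusted p = 0.23 and 0.129). Macrophage markers fell in 6 of 9, among them Mrc1 (by 1.92 ± 0.19), Adgre1 (by 1.93 ± 0.29) and Lyz2 (by 1.33 ± 0.19), with a median ratio of 0.546 to 0.753 in STAT5b-/- arrays, against 0.912 to 1.13 in WT. Muscle and endothelial markers fell in 1 of 11, near the 8.42% of all genes called lower; the gene was Tek (by 0.78 ± 0.12), with a median ratio of 0.778 to 1.04 in STAT5b-/- arrays, against 0.949 to 1.07 in WT; Kdr and Cnn1 had 0.36 ± 0.19 and -0.36 ± 0.22 (limma adjusted p = 0.223 for Kdr and 0.306 for Cnn1). As values are ratios, no marker can be said to be present or absent.

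**Figure D5:**
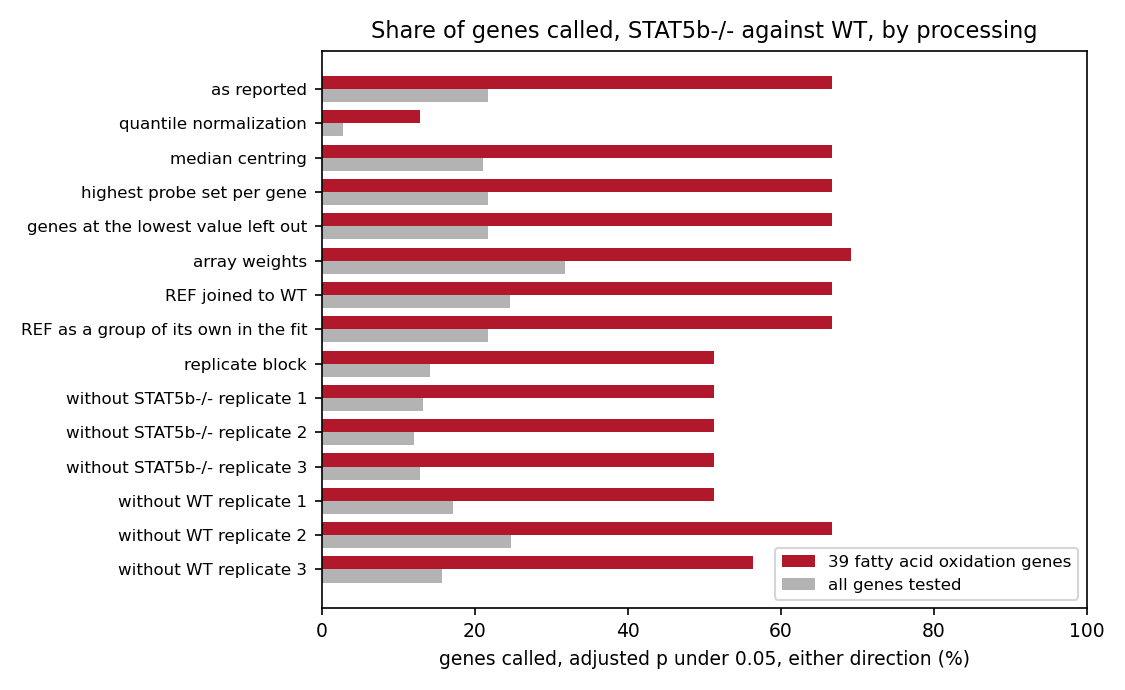
Share of genes called in STAT5b-/- against WT (horizontal axis, percent, adjusted p under 0.05 in either direction) among the 39 fatty acid oxidation genes (upper bar of each pair) and all genes tested (lower bar), as reported and under each other way of processing. The share among the 39 is 66.7% as reported and 12.8% after quantile normalization, where that of all genes is 2.77%.

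Of the 26 rises, those of Acads, Cpt2, Eci1, Acaa1b and Acot1 passed under each of 14 other ways of processing, and 15 more under all but quantile normalization. The calls of Decr1, Acadl, Hadhb, Etfdh, Phyh and Pex11a, with the largest p among the 26, also ended when single arrays were left out. No rise changed its direction under any of the 14.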

How the data were processed

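Colon RNA of 3 STAT5b-/- samples, 3 WT samples and REF (1 sample) was measured on Affymetrix arrays from 100 ng total RNA, per the labels' protocols. RMA is named in the submitters' processing notes, with no version; the array type and annotation are not given in the sources used here. The deposited values are linear ratios to the WT mean of each probe set, as read from the values themselves (the WT mean is 1 to within 1.87e-07), with a lowest value of 0.01. The number of arrays and the spread between samples limit the precision; scanner intensities were not used here.

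Of 26180 probe sets, 15228 matched 1 gene symbol through RefSeq accessions (GRCm38.p6) and 10952 none. Ratios were put on the log2 scale with a pseudocount of 0, and probe sets of a gene averaged. limma 3.58.1 (lmFit, eBayes; R 4.3.3) compared STAT5b-/- with WT and REF with WT over 14351 genes, with Benjamini-Hochberg adjustment over all of them and a threshold of 0.05. Scripts were tested on simulated data.

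The members and lists were chosen with earlier results of these data known. Ratios per sample are given for the 15 members with the smallest p, all members that fell (0), Acsl1, Cpt1a, Cd36 and the thioesterases, other members by log2 fold change, and up to 3 genes per further list (13 lists). Plin4, Adipoq, Lep, Ppargc1a, Pccb, Mlycd, Ceacam20 and Car4 were named after their values were seen. Some genes that the rule takes are not reported here. Alternatives were quantile normalization, median centring, the highest probe set per gene, leaving out genes at the lowest value, array weights, REF in the fit, a replicate block, and leaving out each array. No filter on dim probe sets or background correction could be tried on ratios.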

Additional observations from a re-analysis of the deposited data

How the results depend on the processing

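Quantile normalization of the ratios moved the results most: 5 of the 39 genes were called instead of 26, and the medians were 0.53 for mitochondrial and 0.57 for peroxisomal genes instead of 0.85 for each. It gives all arrays one distribution, and the SD of the log2 ratios was 0.646 to 0.737 in the STAT5b-/- arrays and 0.289 to 0.363 in WT as deposited; the median SD of the 39 genes between WT arrays was 0.27 with it and 0.15 without. The number called was 26 to 27 under the other alternatives that keep all arrays, except 20 with the replicate block, and 20 to 26 with an array left out. The share of all genes called moved as well. It was 21.7% as reported, 2.77% with quantile normalization, 31.8% with array weights, 24.6% with REF joined to WT and 14.2% with the replicate block. With REF as a group of its own the fit was the reported one again, so its count is no separate check. The comparison of REF with WT had 0 of the 39 called (limma) under its own 5 alternatives: all samples in 1 fit, quantile normalization, and each WT array left out. With an array left out the median of the peroxisomal genes was 0.78 to 0.96 and that of the mitochondrial genes 0.76 to 0.88. Calls of Decr1, Acadl, Hadhb, Etfdh, Phyh and Pex11a ended without STAT5b-/- replicate 1 (limma adjusted p = 0.0658 to 0.139), 2 (0.0625 to 0.152) or 3 (0.0727 to 0.111) and without WT replicate 1 (0.057 to 0.115). Those of Acadl, Hadhb, Etfdh and Phyh ended without WT replicate 3 (0.0579 to 0.133), and that of Pex11a without WT replicate 2 (0.074). Same-numbered arrays did not deviate together (correlations across genes of 0.0355, -0.0984 and -0.186), so numbers were not taken as pairs; the replicate block ended the calls of these 6 genes (adjusted p = 0.0526 to 0.113). Among genes that were not called, signs turned for Acot3 with array weights (0.12) and without WT replicate 2 (0.18), and for Cd36 without WT replicate 1 (-0.048). Over the arrays left out one at a time, the log2 fold changes ran up to 0.31 for Cd36, 0.13 for Eci2 and 0.23 for Acot12 and down to -0.39 for Acot3. Acot12 turned without STAT5b-/- replicate 1 (-0.075), WT replicate 1 (-0.024) or WT replicate 3 (-0.11), and Eci2 without STAT5b-/- replicate 2 (-0.068), STAT5b-/- replicate 3 (-0.003) or WT replicate 3 (-0.043). The cause was not tested. Array weights added calls for Crat and Acot4 and ended that of Pex11a (adjusted p = 0.0888).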
